A study of Arabidopsis thaliana with 3 samples.

Results

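Peaks of the transcription factor FHY3 were examined at 5 Arabidopsis thaliana genes of chlorophyll synthesis: CHLH (AT5G13630), CHLD (AT1G08520), CHLI1 (AT4G18480), CHLI2 (AT5G45930) and HEMB1 (AT1G69740). A peak was counted at a gene when it overlapped the gene span extended by 3000 bp on each side. By this rule replicate 1 held 1 peak at these genes among 1477 peaks, and replicate 2 held 2 among 1361. All 3 peaks lay at CHLH. No peak of either list lay at HEMB1, CHLD, CHLI1 or CHLI2.

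The peaks came from chromatin immunoprecipitation with sequencing (ChIP-seq), which maps the DNA that a protein sits on. The material was whole inflorescences, no flower older than stage 8, from greenhouse plants given 16 h light and 8 h dark. All plants carried FHY3 tagged with FLAG and HA, driven by the 35S promoter, in the fhy3-4 mutant. An antibody to FLAG pulled down the chromatin of 2 ChIP samples, which the design text calls distinct biological replicates, and 1 input sample had no antibody. Because 35S is active in most plant tissues and whole inflorescences were used, the peaks do not separate cell types and the tagged protein was not under the FHY3 promoter. The lists give a position and the authors' score for each peak, with no reads, so sequencing depth is unknown. The score has no stated scale and was read only within its own list, apart from 1 alternative setting with a cutoff of 100 in both lists. The series has no second ChIP condition, so values are descriptions and no test was made. A gene without a peak is one where nothing passed the authors' threshold, a setting that no label used here gives.

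Chlorophyll and heme share a pathway that runs from glutamate through 5-aminolevulinic acid to protoporphyrin IX. HEMB1 encodes 5-aminolevulinic acid dehydratase, which makes porphobilinogen early in that shared part. Magnesium chelatase then inserts magnesium into protoporphyrin IX, the first step committed to chlorophyll. Its H subunit, encoded by CHLH and also known as GUN5, binds the porphyrin, and its D and I subunits form the ATP-driven part of the enzyme. FHY3 and its relative FAR1 derive from transposases and act in phytochrome A signalling, and HEMB1 has been reported as a direct target of FHY3 in seedlings.

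CHLH lies on chromosome 5 from 4387307 to 4392429, a span of 5123 bp in the TAIR10.1 assembly. Both lists had a peak over its low-coordinate end. In replicate 1 it ran from 4386778 to 4387837, with a width of 1060 bp and a score of 75.9. In replicate 2 it ran from 4386673 to 4387719, with a width of 1047 bp and a score of 144. These peaks cover the same gene end in both replicates and reach into no other protein-coding gene. Positions are those of the peak lists, for which no label names a build, and each statement on a gene assumes the frame of TAIR10.1. The gene table holds no strand, so this end is not called a start or an end of transcription, and positions of exons, introns and UTRs were not analysed here.

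**Figure D1:**
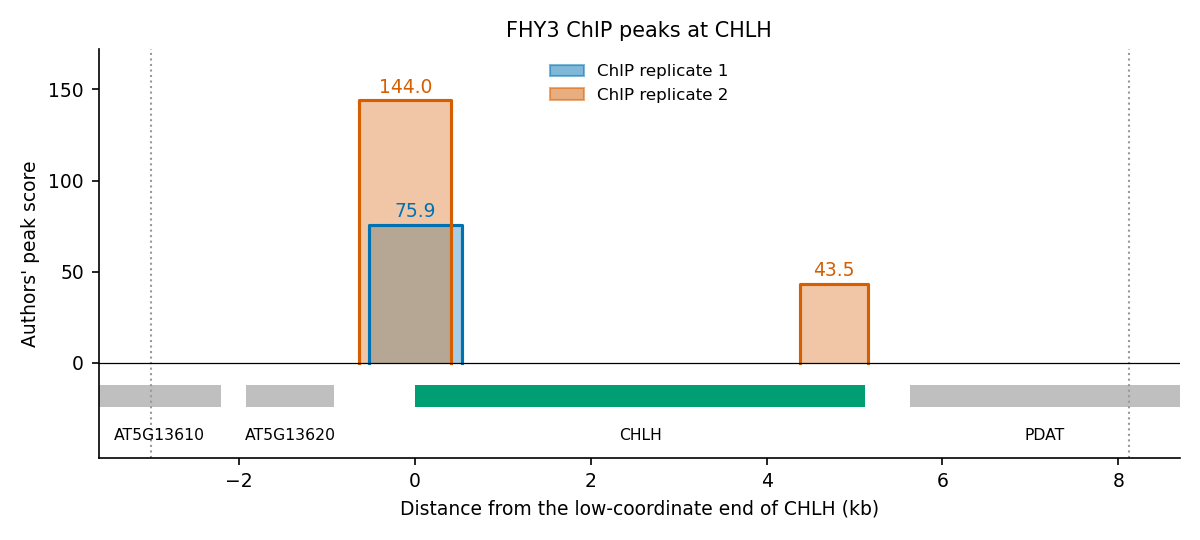
Peaks of ChIP replicate 1 and ChIP replicate 2 at CHLH, by distance from the low-coordinate end of the gene (kb); box height is the authors' score, green is CHLH, grey marks neighbouring protein-coding genes and dotted lines mark 3000 bp beyond each end. Both replicates have a peak over the low-coordinate end (75.9 and 144), and replicate 2 has another over the high-coordinate end (43.5).

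The midpoint of the replicate 1 peak lay within 1 bp of that end of CHLH, and 531 bp of the peak were inside the gene and 529 bp outside, counts that could shift by 1 bp because the labels do not say whether starts count from 0. The midpoint of the replicate 2 peak lay 111 bp outside the end, with 413 bp inside the gene and 634 bp outside. Over all nuclear peaks, those far from genes included, 77 of 1475 in replicate 1 (5.22%) and 88 of 1354 in replicate 2 (6.50%) had a midpoint within 111 bp of either end of a protein-coding gene. That limit is the distance at CHLH in replicate 2, the larger of the 2 replicates, and was taken after it was seen, so these shares are a description. The low-coordinate side of CHLH has a gap of 920 bp before the next protein-coding gene, AT5G13620. That gene ended 391 bp from the peak of replicate 1 and 286 bp from the peak of replicate 2.

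The 2 replicates placed this peak nearly alike. They shared 942 bp, from 4386778 to 4387719, which is 88.9% of the replicate 1 peak and 90.0% of the replicate 2 peak. The 944 overlapping pairs of nuclear peaks had median shares of 98.5% and 86.6% in the same order. The midpoints at CHLH were 112 bp apart, against a median of 73.5 bp over all pairs, and 32.5% of pairs were farther apart. Of all pairs, 26.2% had a smaller share of the replicate 1 peak covered and 57.5% a smaller share of the replicate 2 peak. By midpoint and by the replicate 1 share, the CHLH pair was thus less close than most pairs. By the replicate 2 share it was closer than most. On each of these measures it lay between the quartiles over all pairs.

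By score, the CHLH peak stood in the upper middle of both lists. It ranked 472 of 1477 in replicate 1, with 68.0% of peaks lower, and 417 of 1361 in replicate 2, with 69.4% lower. The percentile in replicate 2 exceeded that in replicate 1 by 1.39 points, and 34.4% of pairs had a larger rise. Widths were ordinary too: nuclear peaks scoring within 10 of the CHLH peak had median widths of 912 bp in replicate 1 (93 peaks) and 1059 bp in replicate 2 (36 peaks). Of those, 90.3% and 88.9% overlapped a peak of the other list.

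**Figure D2:**
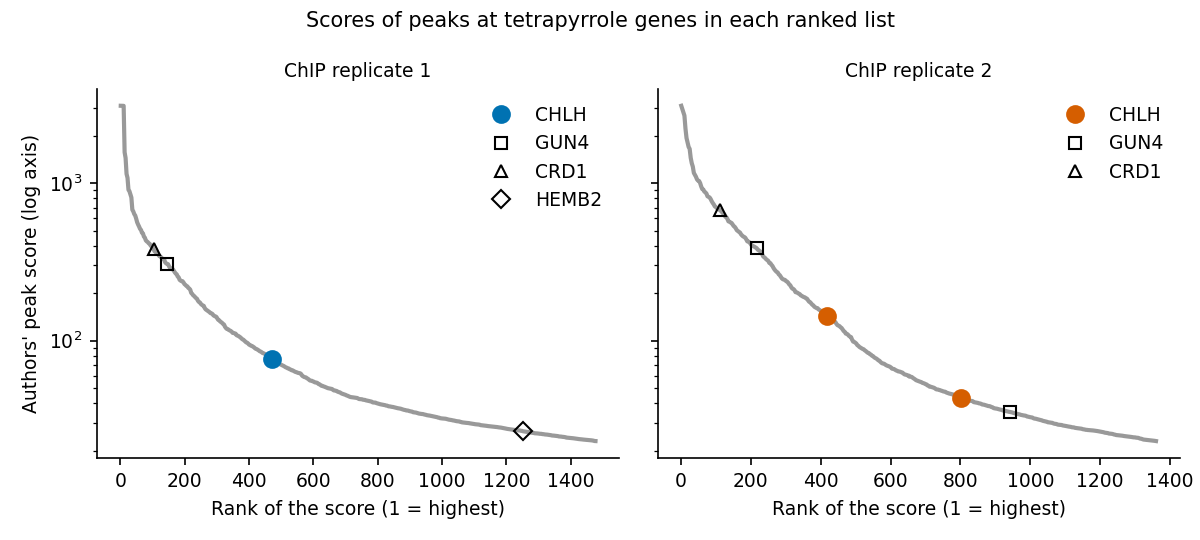
The authors' score (log axis) against rank in each list, with grey lines for all peaks and symbols for peaks at CHLH, GUN4, CRD1 and HEMB2. CHLH ranks 472 in replicate 1 and 417 and 803 in replicate 2, below the leading peaks of GUN4 and CRD1 in both lists.

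**Figure D3:**
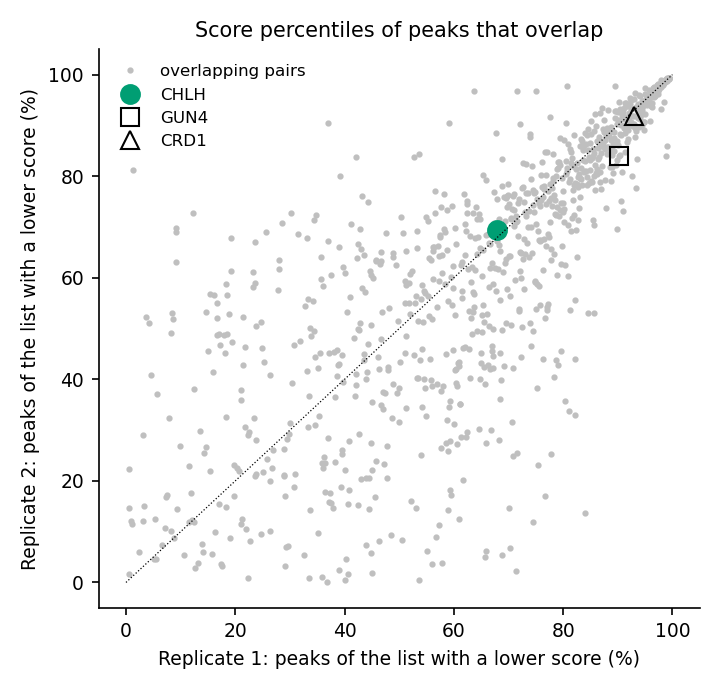
Percent of each list with a lower score for the 944 overlapping pairs of nuclear peaks (grey), with replicate 1 across and replicate 2 upwards; the dotted line marks equal percentiles. CHLH (68.0% and 69.4%) lies near the line, as does CRD1 (93.0% and 91.8%), and GUN4 lies below it (90.2% and 84.1%).

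Replicate 2 also had a peak over the high-coordinate end of CHLH, from 4391688 to 4392458, with no partner in replicate 1. It was 771 bp wide, of which 742 bp lay inside the gene, and its midpoint lay 356 bp inside that end. Its score of 43.5 ranked 803 of 1361, with 41.0% of peaks lower. Among the 284 nuclear peaks of replicate 2 scoring within 10 of it, 51.1% overlapped a peak of replicate 1. A peak with this score and no partner was therefore common in that list. The next gene, PDAT (AT5G13640), which encodes an acyltransferase of oil synthesis, began 478 bp beyond the peak.

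Few genes had a separate peak over each end. In replicate 2 there were 9 among the 774 protein-coding genes that overlapped a peak (1.16%), CHLH included, and in replicate 1 there were 6 among 712 (0.843%), without CHLH. The peaks at CHLH were 3968 bp apart. This comparison was chosen after the peaks at CHLH were seen. Several peaks within 3000 bp were found for 162 of the 2087 genes that had a peak there in replicate 2 (7.76%) and for 170 of 1988 in replicate 1 (8.55%).

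Across the 5 genes, 1 had a peak in replicate 1, 1 in replicate 2 and 1 in both, and it was CHLH each time. Over all nuclear protein-coding genes, 7.24% had a peak within 3000 bp in replicate 1, 7.60% in replicate 2 and 5.45% in both. The other 4 genes had none in either list, the state of 90.6% of all genes. With 5 genes, a count of 1 is the smallest above none, and nothing particular to these genes is read from it. CHLH also did not lead the genes with peaks. Of the 1497 genes with a peak of each list, 951 had a higher-ranked peak than CHLH in replicate 1, 948 in replicate 2 and 866 in both.

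HEMB1, the dehydratase gene, lies on chromosome 1 from 26231620 to 26235043. Its nearest peak lay on the low-coordinate side and was called in both lists, 18.6 kb away in replicate 1 and 18.4 kb away in replicate 2. In replicate 1 it ran from 26212033 to 26213029 and scored 137, rank 303. In replicate 2 it ran from 26212013 to 26213252 and scored 486, rank 169. This peak overlapped no protein-coding gene, and 5 protein-coding genes lay between it and HEMB1. The nearest of these to the peak is TCP15, which lies within 3000 bp of it in both lists. Another is the heme oxygenase gene HO3, farther off at 13.7 kb and 13.5 kb from the peak in replicates 1 and 2. A weaker shared peak lay 49.2 kb from HEMB1 over ZFHD1, a homeodomain gene, with scores of 39.6 and 27.8. No peak of either list lay closer to HEMB1 than the first one, at 18.6 kb and 18.4 kb. The lists thus hold no peak at the gene itself or within 10 kb of it.

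**Figure D4:**
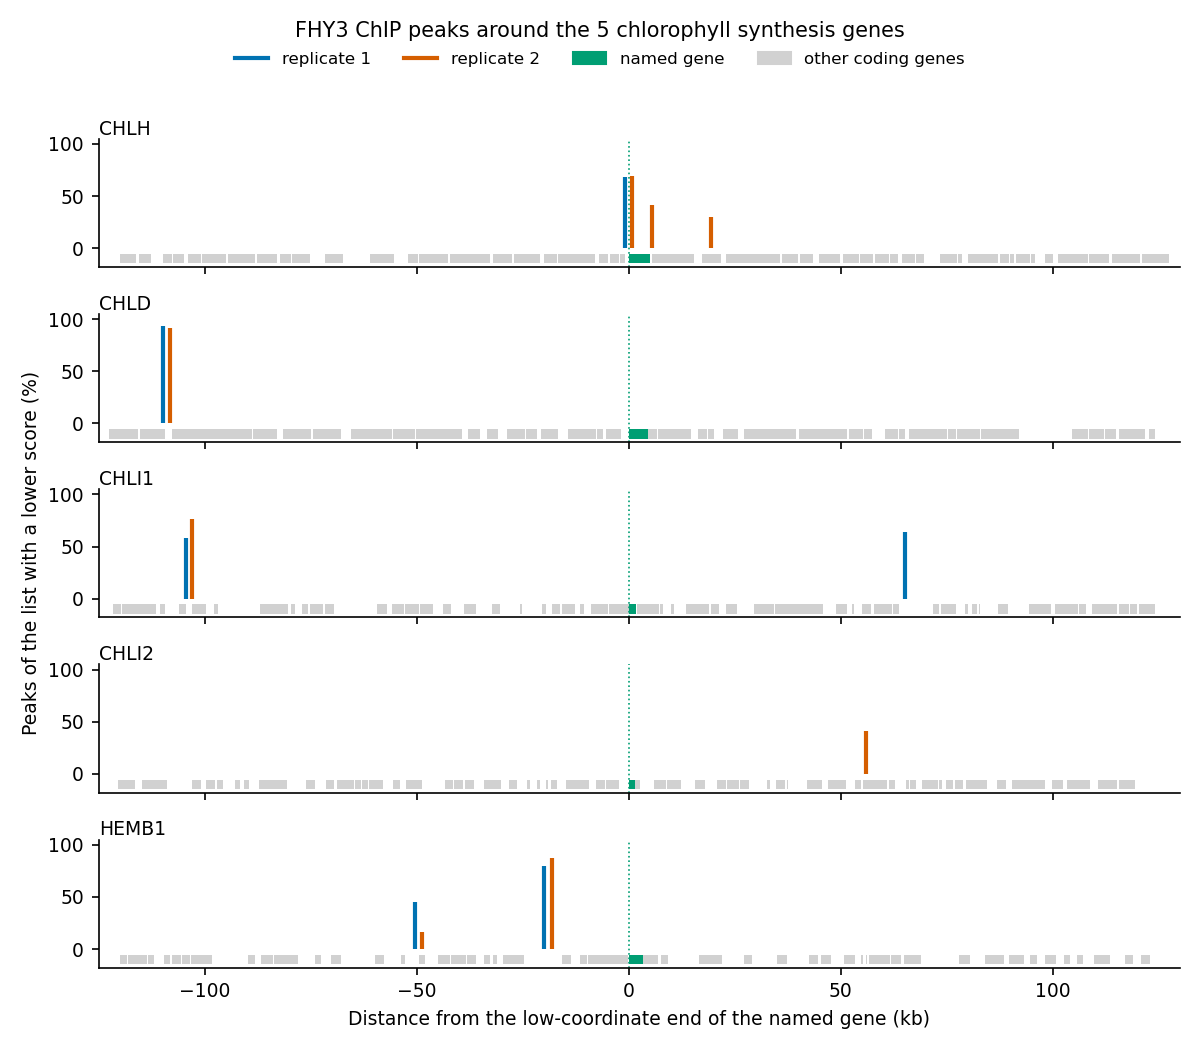
Peaks around each of the 5 genes by distance from the gene's low-coordinate end (kb), with bars for replicate 1 and replicate 2 drawn side by side and bar height giving the percent of that list with a lower score; the named gene is green and other protein-coding genes grey. Of the 5 genes CHLH alone has peaks over it, and the nearest to the other 4 genes in the plot lie between 18.4 kb (HEMB1) and 108 kb (CHLD) away.

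Among the other chelatase genes the nearest peaks lay from 53.2 to 181 kb away. CHLD, on chromosome 1 from 2696381 to 2701022, had its nearest peak 108 kb away in both lists. That peak scored 396 in replicate 1 and 681 in replicate 2, ranks 97 and 110, and lay over AT1G08230 with 28 protein-coding genes between. It was thus a strong shared peak, but a distant one.

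The I subunit is encoded by CHLI1, the main isoform, and CHLI2, its close copy. CHLI1, on chromosome 4 from 10201672 to 10203469, had its nearest peak at 63.6 kb in replicate 1, with a score of 65.9 and no partner in replicate 2. In replicate 2 the nearest lay 103 kb off on the other side, with a score of 214, and overlapped a replicate 1 peak scoring 53.0. CHLI2, on chromosome 5 from 18627950 to 18629697, had its nearest peak 181 kb away in replicate 1 (score 337) and 53.2 kb away in replicate 2 (score 43.9). The replicate 1 peak overlapped a peak of replicate 2, whereas the replicate 2 peak had no partner in replicate 1. For these isoform genes the lists therefore named different nearest peaks.

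Over all genes, the median distance from a protein-coding gene to the nearest peak was 47.2 kb in replicate 1 (quartiles 17.6 and 101 kb) and 43.5 kb in replicate 2 (quartiles 16.4 and 95.2 kb). HEMB1 was closer to a peak than most genes, with 73.8% of genes farther in replicate 1 and 72.7% in replicate 2. CHLD was farther than most, with 22.9% and 21.0% of genes farther still. For CHLI1 the shares were 40.3% in replicate 1 and 22.4% in replicate 2, and for CHLI2 they were 9.54% and 43.7%. CHLI2 thus stood among the more distant genes in replicate 1 and near the median in replicate 2. Its standing in replicate 2 rests on a peak with no partner in replicate 1. Within 25 kb, where HEMB1 gains its first peak, 26.9% of all genes had a peak of each list.

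The rest of the pathway was followed in a list of 37 tetrapyrrole genes that includes the 5. A peak within 3000 bp was found for 4 of 37 in replicate 1 (10.8%), 3 in replicate 2 (8.11%) and 3 in both (8.11%). The share in both stands beside 5.45% of all genes and rests on 3 genes. Without the 5 genes, 2 of 32 had a peak of each list (6.25%). The genes with peaks in both lists were CHLH, GUN4 and CRD1. None of the 5 genes that make 5-aminolevulinic acid and none of the 7 genes of the heme and bilin branch had a peak in either list, the state of 90.6% of all genes.

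GUN4 (AT3G59400), whose protein binds porphyrins and stimulates magnesium chelatase, had a shared peak on chromosome 3. It ran from 21945057 to 21946156 in replicate 1, with a score of 307 and rank 145, and from 21945191 to 21946180 in replicate 2, with a score of 386 and rank 217. The peak lay 2344 bp and 2320 bp from GUN4 in replicates 1 and 2, over FTA (AT3G59380), a subunit of protein farnesyltransferase, and AT3G59390, and its midpoint lay inside FTA. As at CHLH, replicate 2 alone had a further low-scoring peak, from 21946778 to 21947420, with a score of 35.3. It was 1080 bp from GUN4, with its midpoint inside AT3G59390. GUN4 is thus within reach of peaks, but none overlapped it.

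CRD1 (AT3G56940), also called CHL27, encodes a part of the cyclase that closes the fifth ring of chlorophyll. Its shared peak ran from 21073739 to 21074905 in replicate 1, with a score of 380 and rank 103, and from 21073677 to 21074885 in replicate 2, with a score of 678 and rank 111. It lay over AT3G56930, at 1599 bp and 1619 bp from CRD1. HEMB2 (AT1G44318), the second dehydratase gene, had a peak in replicate 1 only, at 1417 bp, with a score of 26.6 that ranked 1251 of 1477. Of the pathway genes with a peak, CHLH was therefore the only one of these 4 that a peak overlapped.

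**Figure D5:**
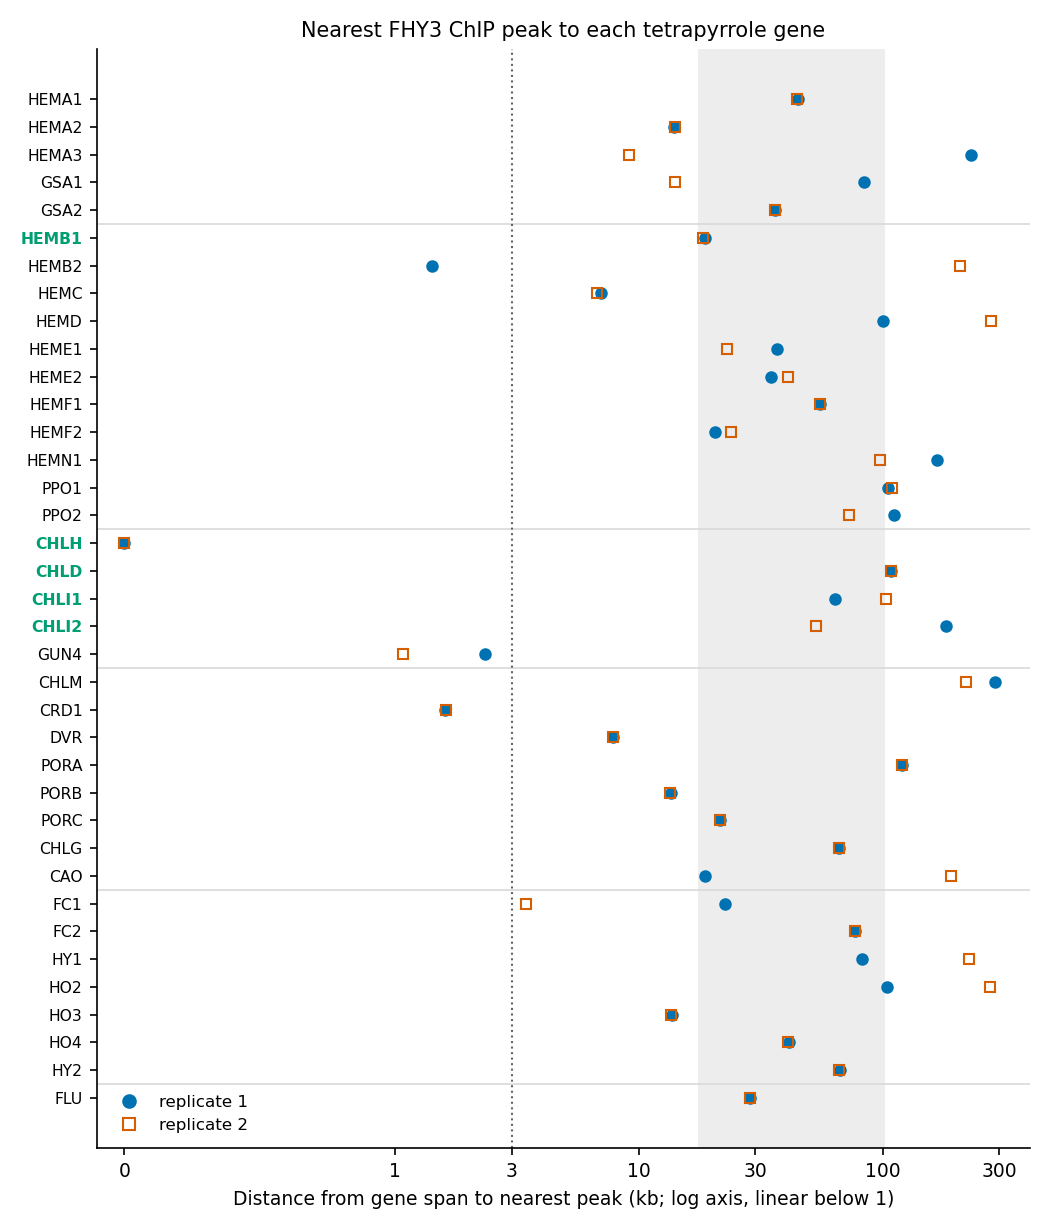
Distance from each of 37 tetrapyrrole genes to its nearest peak in replicate 1 (filled circles) and replicate 2 (open squares), in kb on a log axis that is linear below 1; names of the 5 genes are green, grey lines part the pathway steps, the dotted line marks 3 kb and the grey band the quartiles over all protein-coding genes in replicate 1 (17.6 and 101 kb). CHLH alone is at 0 in both lists, and GUN4 and CRD1 are the other genes left of the dotted line in both.

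Genes whose best peaks stood most like that of CHLH were found by the distance between pairs of score percentiles over the 2 samples. The closest, at 0.324 percentile points, were ABCF1 (AT5G60790) and AT5G60800. These genes share 1 peak on chromosome 5, with scores of 75.8 in replicate 1 and 143 in replicate 2. Next, at 1.30 points, came AT2G44920, tied with AT2G44925 and AT2G44930 at a peak on chromosome 2 scoring 81.0 and 147. Of 1494 genes with a peak of each list that share none with CHLH, 60 lay within 5 percentile points.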

How the data were processed

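The tools named, per the submitters' processing notes, are Bowtie2 2.2.3, MACS 1.4.2 and CASAVA 1.8. Settings, control and build were not given in the sources used here. Each ChIP sample has its own peak list deposited by the authors, so replicates were not pooled, with a score per peak running from 23.03 to 3100 in both lists. Deposited starts were taken to count from 0, which the labels do not state, and converted to count from 1. Depth is unknown: a deeper library can give more and higher-scored peaks, and no value carries a counting error. Samples were grouped by title, and the input sample was not analysed here.

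Gene spans came from a RefSeq table of TAIR10.1, without strand or sequence, and all 37 pathway loci were found in it. Each count at the 5 genes was set beside the same count over 27444 nuclear protein-coding genes. Overlap of peaks means at least 1 bp. Peak counting was tested on simulated data. Named were the 5 genes, pathway genes with a peak within 3000 bp, neighbours of those peaks, and the 3 genes (with ties) most like a member with a peak in both lists. The members and lists were chosen with earlier results of these data known. Planned motif searches were not run. Python 3.11.15, numpy 2.4.6, pandas 2.3.3 and matplotlib 3.10.9 were used.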

Additional observations from a re-analysis of the deposited data

How the results depend on the processing

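Of 50 values recomputed under other settings, 41 stayed within 1.5 times the reported one. CHLH was the only one of the 5 genes with a peak in each list with 0, 1000, 3000 and 5000 bp, and under the overlap rules and gene assignments tried. The widths could not change this, because peaks overlap CHLH and the nearest to another of the 5 genes lay 18.4 kb away. Leaving out a replicate only repeated the count of the other list. Such values are among the 50. HEMB1 had 1 peak in each list within 25 kb. The exception among the settings was a score of at least 100, where 0 of the 5 genes had a peak in replicate 1 and 0 in both. There the CHLH peak scored 75.9 in replicate 1. This cutoff is the same number in both lists, although their median scores were 42.91 in replicate 1 and 55.22 in replicate 2. With a cutoff at the median score of each list, CHLH kept a peak in both. Pathway genes with a peak of each list numbered 1 with 0 bp, with 1000 bp and with the nearest gene only. They numbered 2, GUN4 and CRD1, at scores from 100 upwards, and 3 to 4 with a replicate left out. The peaks near GUN4 and CRD1 overlap neither gene, lie more than 1000 bp from them and have midpoints inside other genes. The share of all genes was 1.93% with 0 bp, 3.18% with 1000 bp, 2.96% at scores from 100 upwards and 2.14% with the nearest gene only. With a replicate left out it was 7.24 to 7.60%. The upstream side and motif letters were not run for want of strand and sequence. No paired analysis was possible because only 1 group was analysed here. Depth is unknown, so a missing peak does not show that FHY3 was absent.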

Other observations

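Beyond 3000 bp, several pathway genes had peaks that the count leaves out. Over all protein-coding genes, 16.4% had a peak within 10 kb in replicate 1 and 17.4% in replicate 2. Nothing particular to the pathway is therefore read from such distances. DVR, the gene of divinyl reductase, had its nearest peak 7.81 kb away in replicate 1 and 7.80 kb away in replicate 2. The scores were 211 and 249.7, and 2 protein-coding genes lay between. HEMC, the gene of porphobilinogen deaminase, had one at 6.98 kb and 6.72 kb, with scores of 27.8 and 134 and 1 protein-coding gene between. FC1, a ferrochelatase gene, lay just outside the limit in replicate 2, at 3.45 kb from a peak scoring 23.2, near the lowest score of the list, and 22.5 kb from a peak in replicate 1. The genes farthest from any peak in replicate 1 were CHLM, the methyltransferase of the chlorophyll branch, at 289 kb, and HEMA3 at 229.6 kb. In replicate 2, however, HEMA3 had a peak at 9.12 kb, with a score of 190.5 and 2 protein-coding genes between. Around CHLH, replicate 2 had a further peak with no partner, 13.2 kb away over AT5G13660, with a score of 35.1, and replicate 1 had no other peak within 100 kb.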
